A study of Mus musculus with 14 samples.

Results

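The genes described here encode the machinery of protein synthesis, respiration and protein turnover: proteins of the cytosolic and mitochondrial ribosome, translation initiation factors, subunits and assembly factors of respiratory complexes I to V, parts of the mitochondrial import machinery, and subunits of the proteasome. Members were chosen by gene symbol (Rps, Rpl, Mrps, Mrpl, Nduf, Sdh, Uqcr, Cox, Atp5, Timm, Tomm, Psm and Eif names), not by their values, and the probe sets of each gene were averaged. This gave 160 members (212 probe sets) of 6044 genes measured under a single symbol. The annotation holds 409 protein-coding mouse genes whose symbols meet the same rule. By role, 29 members belonged to the mitochondrial ribosome, 19 to the cytosolic ribosome, 18 to complex I, 17 to the initiation factors, 16 to mitochondrial import, 16 to the 19S regulator of the proteasome and 10 to its 20S core. Complex II had 6, complex III 6, complex IV 8, complex V 7 and the proteasome activators 2 members. The letters of the rule also caught 2 relatives of the S6 kinases (Rps6ka5 and Rps6kc1), the eIF2alpha kinases Eif2ak1 and Eif2ak2, and the eIF4E binding proteins Eif4ebp1 and Eif4ebp2.

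RNA came from mammary cells of virgin female C57BL/6 mice, 6 to 8 weeks old by the labels, stained for CD45, CD31 and Ter119 (markers of leukocytes, endothelial cells and erythroid cells) and sorted on CD24, CD49f and Thy-1. The study's methods also list an antibody to CD140alpha, a marker of fibroblasts, which the labels of these arrays do not name. There were 3 basal populations, Thy-1+CD24medCD49fhigh, Thy-1-CD24medCD49fhigh and CD24medCD49fmed, with 3 arrays each, and 2 luminal populations, CD24highCD49fmed (luminal progenitor) with 3 arrays and CD24medCD49f-/low with 2. The study's text writes its myoepithelial cells as CD24lowCD49fmed, and CD24medCD49fmed, the name in the labels, is taken to be that population. Its replicate 3 is labelled with an added v. The labels do not say that replicates came from separate mice, so the spread between arrays may be partly technical. The RNA was hybridized to Affymetrix whole-genome mouse arrays. Values are log2 and centred by the authors, so that 0 is a probe set's mean over the 14 arrays. A value therefore ranks the arrays for 1 gene and says nothing of the level of one gene against another. All 8 measured basal markers (Krt5, Krt14 and Acta2 among them) fell and all 8 luminal markers (Krt8, Krt18 and Epcam among them) rose in the luminal arrays, so the sorted lineages carried the markers of their names.

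As background, ribosomal proteins, most respiratory subunits and proteasome subunits are made in every cell, in amounts that follow its growth, energy demand and protein turnover. The mammary epithelium has an inner luminal layer, which holds the progenitors of milk-secreting cells, and an outer basal layer of contractile myoepithelial cells in which stem cell activity has been found. Many ribosomal mRNAs begin with a terminal oligopyrimidine (TOP) tract, through which mTORC1 governs their translation, and many nuclear genes of the mitochondria carry sites for the factors NRF1, ETS-family GABP and YY1.

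The members were lowest on single arrays of the basal populations. On Thy-1+CD24medCD49fhigh replicate 1 the median of the 160 members was -1.53, on replicate 3 of that population it was -0.67, and on Thy-1-CD24medCD49fhigh replicate 2 it was -0.48. On the other 11 arrays it lay between -0.21 (CD24medCD49fmed replicate 1) and 0.65 (CD24highCD49fmed replicate 3). The same 3 arrays had the lowest medians over all 7190 rows of the table, at -0.74, -0.51 and -0.15. With each array centred on its median over all rows, the members' medians on these arrays became -0.79, -0.16 and -0.33. Members thus stood below the rest of the table on all 3 arrays, most on Thy-1+ replicate 1, where 138 of 160 lay below the array's median. In bulk RNA, fewer cells of a type and less RNA per cell cannot be told apart.

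**Figure D1:**
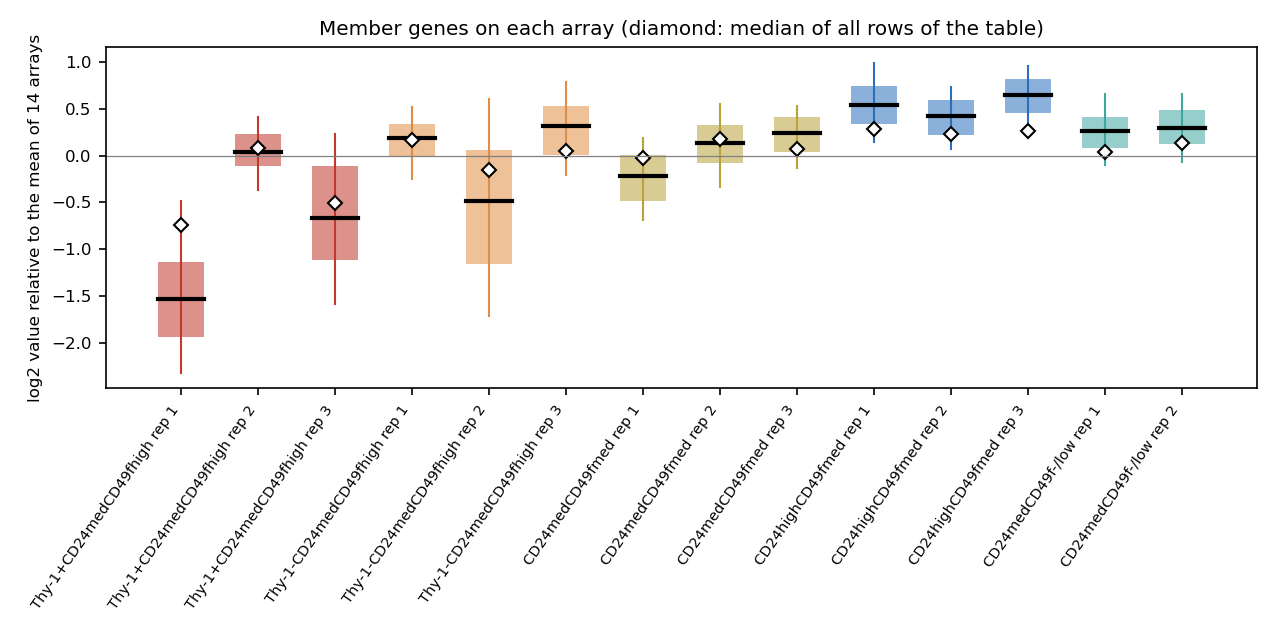
Distribution of the 160 members on each of the 14 arrays, in log2 relative to each gene's mean over the arrays, coloured by population. The box spans the 25th to the 75th percentile, the whisker the 10th to the 90th and the line is the median; the diamond is the median of all 7190 rows. Thy-1+CD24medCD49fhigh replicate 1 had the lowest median of the members (-1.53), and the 5 luminal arrays lay between 0.26 and 0.65.

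Of the 160 members, 105 had their lowest value on Thy-1+ replicate 1, 24 on Thy-1+ replicate 3 and 27 on Thy-1- replicate 2. These 3 arrays held the lowest value of 97.5% of the members and of 64.1% of all rows. The 4 members with their minimum elsewhere were Timm8a2, Uqcr10, Eif5a2 and Ndufa4l2. This bears on which members could be seen at all, because the authors kept only probe sets that differed at least 4-fold (2 log2) between some arrays. All 212 member probe sets spanned that range over 14 arrays, 69 of them (32.5%) did so without the Thy-1+ arrays of lowest median, and 14 (6.60%) did so without the Thy-1- array as well. Over all probe sets of the table these shares were 51.1% and 37.7%. The 14 probe sets belonged to Ndufa7 (3), Eif4ebp2 (2), Psmb3, Mrps23, Mrpl19, Uqcrq, Uqcr10, Eif5a2, Cox15, Rpl22 and Mrpl40. Counts and medians over the members therefore describe genes that mostly entered the table through 3 basal arrays. Low values there raise a luminal minus basal difference, so the filter itself favours members with differences above 0 and few falls.

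The classes did not fall alike on those arrays. On Thy-1+ replicate 1 class medians of the respiratory complexes, ribosomes, import, initiation and proteasome core and regulator ran from -1.36 (19S regulator) to -1.93 (complex IV). On Thy-1+ replicate 3 the 19S regulator (-1.02), complex II (-1.28) and the 20S core (-0.86) were low, while the cytosolic ribosome (-0.22) and complexes III (-0.11), IV (-0.15) and V (-0.11) stood above the array's median of -0.51. On Thy-1- replicate 2 the cytosolic ribosome was lowest, at -0.94, and mitochondrial import was at 0.00. Within the cytosolic ribosome of that array, Rpl8, Rps10, Rpl13a and Rplp0, all structural proteins, were at -2.57, -2.48, -2.46 and -2.25, whereas Rps25 was at 1.36 and Rpl14 at 0.70. Cox4i1 (-2.71), a nuclear-encoded subunit of cytochrome c oxidase, and Psmb4 (-2.81), a beta subunit of the 20S core, were among the lowest values of any member there. Within 1 complex, the departures of members from their own means could thus lie over 3 log2 apart on the same array.

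**Figure D2:**
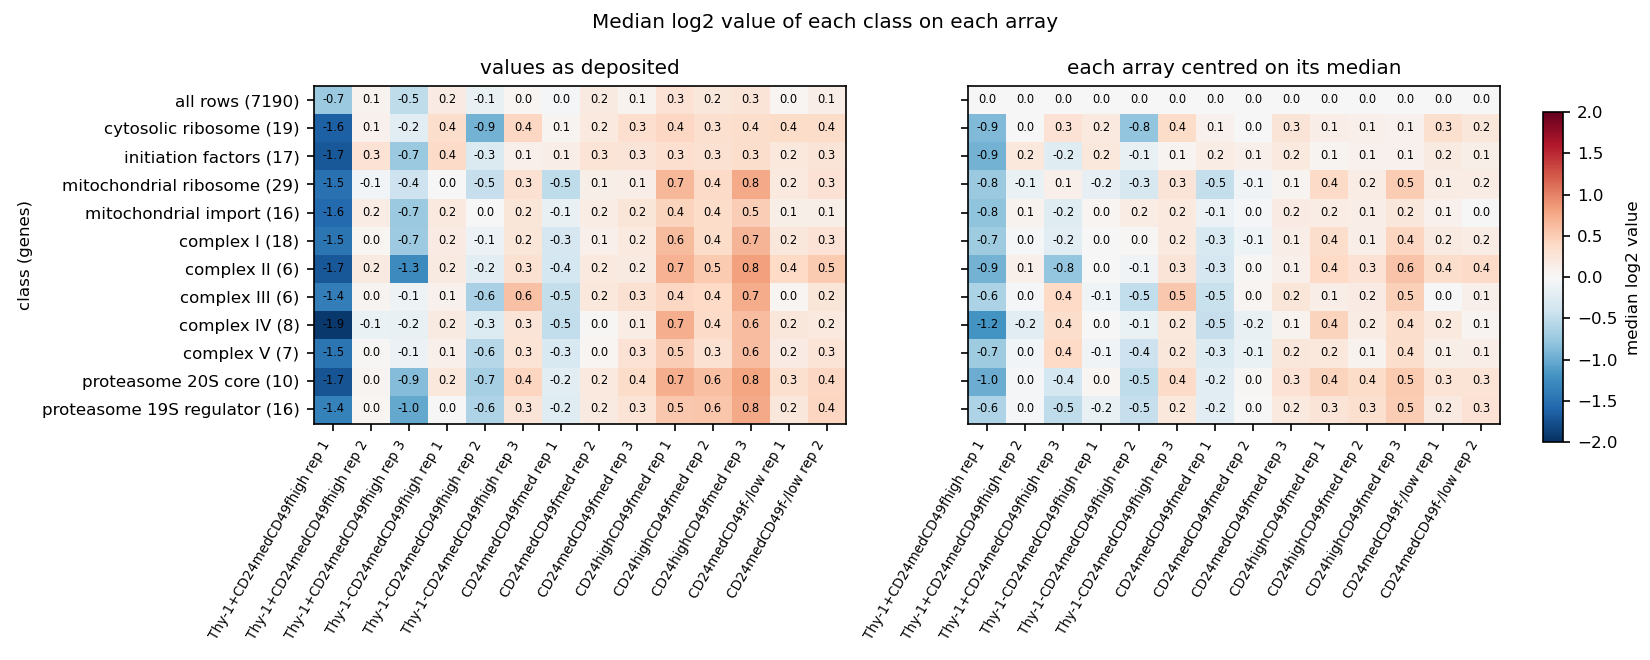
Median log2 value of each class (rows, number of genes in brackets) on each of the 14 arrays (columns), as deposited on the left and with each array centred on its median on the right; blue is below and red above the mean of the arrays. The classes plotted are those of 6 or more genes. On Thy-1+CD24medCD49fhigh replicate 1 their deposited medians run from -1.93 to -1.36, and Thy-1-CD24medCD49fhigh replicate 2 is lowest in the cytosolic ribosome (-0.94).

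Marker genes of other cells differed between these arrays too. The median of the 5 measured endothelial markers (of 5: Pecam1, Cdh5, Kdr, Tie1 and Emcn) was 3.08 on Thy-1+ replicate 1 and 2.39 on CD24medCD49fmed replicate 1, against -0.96 to 0.84 on the other 12 arrays. The median of 4 of 5 fibroblast markers was 2.18 on Thy-1+ replicate 3 and 1.26 on Thy-1+ replicate 1, against -1.66 to 0.55 elsewhere. The 8 basal markers had medians of 0.48, 0.44 and 0.49 on the 3 arrays of low median and of 1.57 to 1.92 on the other 6 basal arrays. The median of the leukocyte markers (2 of 6 measured) was 1.25 on the luminal array CD24medCD49f-/low replicate 1 and 0.86 on Thy-1+ replicate 3. It lay between -0.53 and 0.45 on the other 12 arrays. None of 3 erythroid markers was measured. The adipocyte marker Fabp4 (1 of 4 measured) was 3.07 on Thy-1+ replicate 1 and 3.22 on CD24medCD49fmed replicate 1, against -2.57 to 1.93 on the other 12 arrays. As the values are centred, a summed level and a level of 0 could not be given. The part of these cells in the members' values was not tested.

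Spread between replicates followed the same order. The median SD of a member was 0.95 within Thy-1+CD24medCD49fhigh cells, 0.58 within Thy-1-CD24medCD49fhigh cells and 0.35 within CD24medCD49fmed cells (n = 3 each). It was 0.19 within CD24highCD49fmed cells (n = 3) and 0.10 within CD24medCD49f-/low cells (n = 2). Over all rows the median SD had the same order, at 0.92, 0.45, 0.30, 0.21 and 0.15. Replicates of the Thy-1+ population thus varied most. The SE of a difference depends on the arrays compared as well. For Atp5b it was 0.39 for luminal against basal and 0.59 for Thy-1- against CD24medCD49fmed cells.

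The comparison of luminal with basal cells asked how the lineages differ, over 14 arrays. In the deposited values 44 members rose in luminal cells and 1, Eif5a2, fell (limma, two-sided, Benjamini-Hochberg adjusted p under 0.05 over all rows). Over all rows 27.7% were called higher and 17.4% lower. The share of members called higher, 27.5%, was thus near that of the table, while the share called lower, 0.625%, was under it. The members' median difference was 0.66 log2 (151 of 160 above 0), against 0.33 over all rows. With arrays centred, 21 members rose and 2 fell, Eif5a2 and Rps25, where 19.9% of rows were called higher and 21.8% lower. The members' median was then 0.39 and that of all rows 0.06. The 21 members were all among the 44. The largest rises went to Rpl22 (1.73, SE 0.34), Ndufa7 (1.60, SE 0.29), Psmd10 (1.57, SE 0.33), Eif4ebp2 (1.53, SE 0.30), Mrpl40 (1.36, SE 0.30) and Cox4i1 (1.29, SE 0.47).

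**Figure D3:**
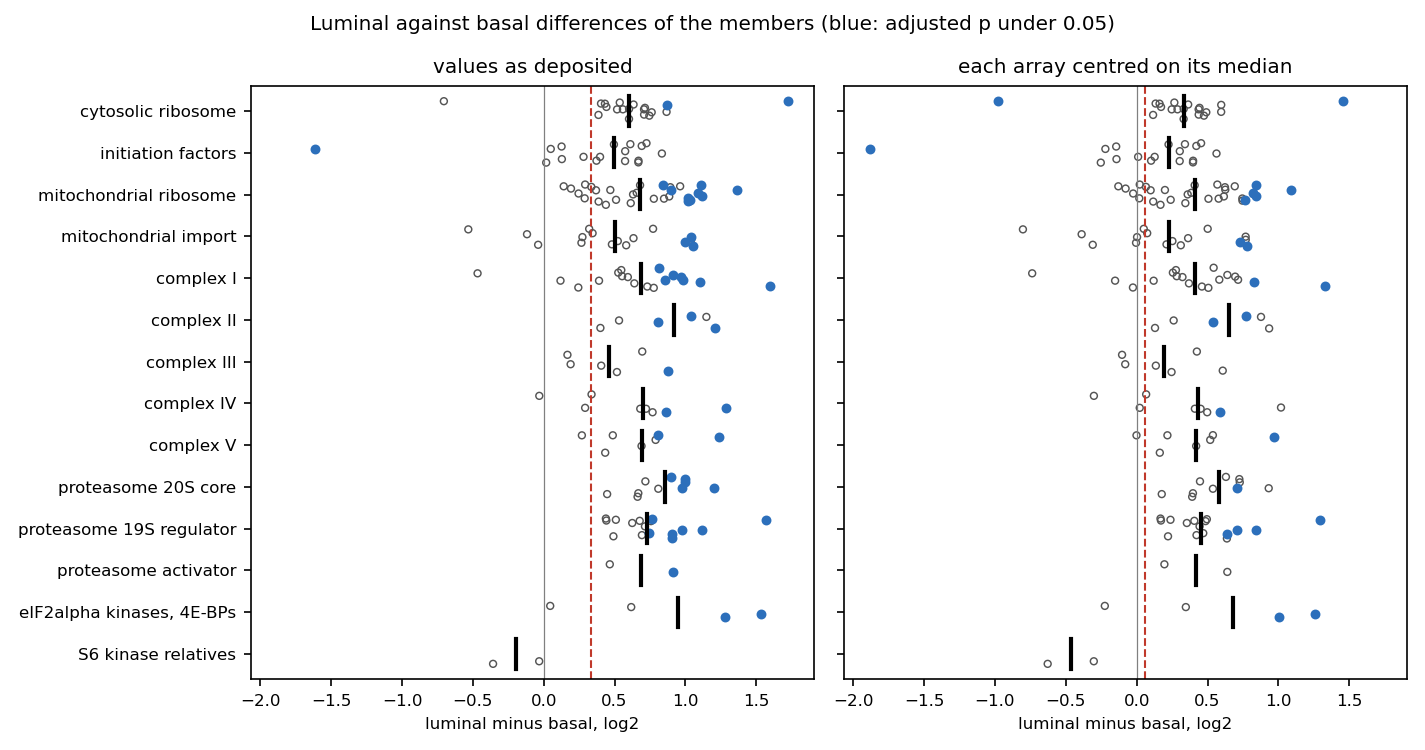
Luminal minus basal difference in log2 of each member, by class, for deposited values (left) and arrays centred on their medians (right); each circle is a gene, filled blue where limma's adjusted p is under 0.05, and the black line is the class median. The red dashed line is the median of all rows, 0.33 and 0.06; class medians lie above it apart from the S6 kinase relatives.

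Single members show how far the lineages were apart. Rpl22, a protein of the large cytosolic ribosomal subunit, was 1.59, 0.88 and 1.30 in CD24highCD49fmed cells and 0.92 and 0.96 in CD24medCD49f-/low cells. In the basal arrays it ran from -1.70 (Thy-1- replicate 2) over a median of -0.80 to 0.42 (Thy-1- replicate 3). No basal array reached the lowest luminal one, and the difference was 3.31-fold (limma adjusted p = 0.000349). With arrays centred it was 1.46 (SE 0.31, limma adjusted p = 0.00146). Ndufa7, an accessory subunit of complex I, was between 0.76 and 1.61 in the 5 luminal arrays and between -1.28 and 0.17 in the 9 basal arrays. Its groups did not overlap either (3.02-fold, limma adjusted p = 0.000186), and 3 probe sets measured it.

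Eif4ebp2, which holds the cap-binding factor eIF4E in check when it is not phosphorylated by mTORC1, was between 0.64 and 1.27 in luminal arrays. In basal arrays it lay between -1.37 and 0.06, also without overlap (limma adjusted p = 0.000397). Its relative Eif4ebp1 differed by 0.05 (SE 0.29, limma adjusted p = 0.906). The interferon-inducible kinase Eif2ak2 (PKR), which blocks initiation when it meets double-stranded RNA, rose by 1.28 (SE 0.31, limma adjusted p = 0.00214), and the heme-regulated Eif2ak1 was 0.62 (SE 0.43) with an adjusted p of 0.241 by limma. Rps6ka5 and Rps6kc1 were -0.36 (SE 0.35) and -0.03 (SE 0.33), neither past the threshold. Of the members caught by their letters alone, 2 of 6 rose past the threshold, where 27.7% of all rows did.

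The one member that fell was Eif5a2, a second form of eIF5A, a hypusine-bearing factor that keeps ribosomes moving. Its luminal values were -1.68, -0.83 and -0.98 in CD24highCD49fmed and -0.57 and -1.22 in CD24medCD49f-/low cells. Its basal values ran from -0.19 to 1.80, the highest on Thy-1+ replicate 1, where most members were at their lowest. The groups did not overlap, and the difference was -1.61 (SE 0.30, limma adjusted p = 0.00026) as deposited and -1.89 (SE 0.31, limma adjusted p = 0.000173) with arrays centred. Rps25, a protein of the small ribosomal subunit, was -0.70 (SE 0.36, limma adjusted p = 0.118) as deposited and fell with arrays centred (-0.98, SE 0.33, limma adjusted p = 0.0283) and with the replicate number as a block (-0.77, SE 0.30, limma adjusted p = 0.0414), but not with array weights (-0.45, SE 0.27, limma adjusted p = 0.159). Its values ran from -1.05 to 1.36 in basal and from -0.89 to -0.01 in luminal arrays, so that the groups overlapped.

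**Figure D4:**
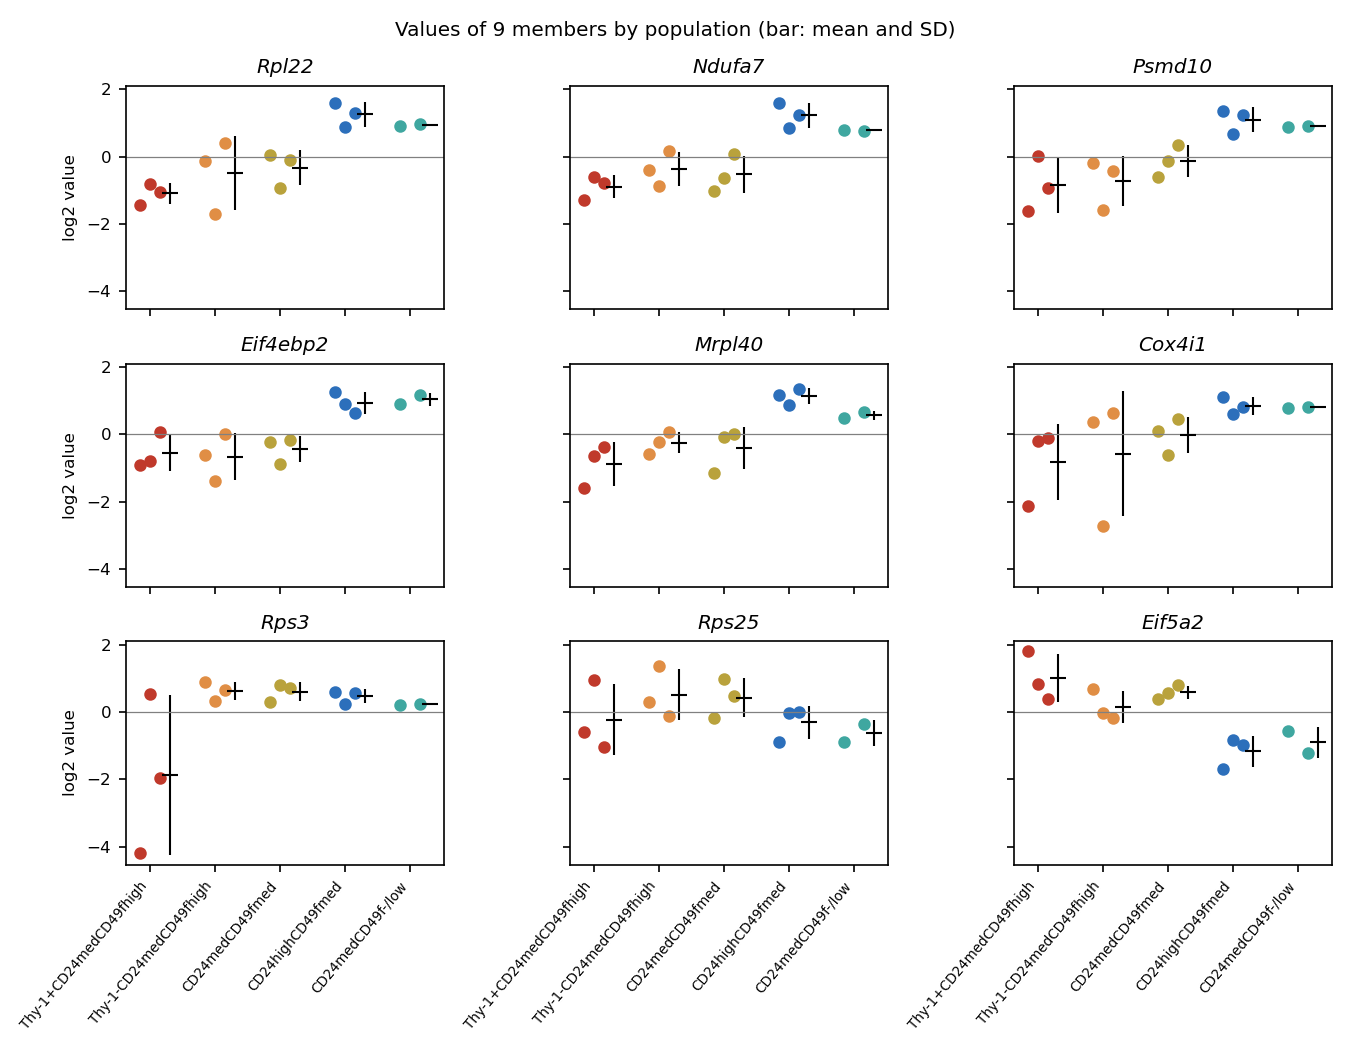
Deposited log2 values of 9 members on every array, by population; each point is an array, and the bar beside the points is the mean with its SD (n = 3, or 2 for CD24medCD49f-/low). The 5 luminal arrays lie above all basal arrays for Rpl22, Ndufa7, Psmd10, Eif4ebp2 and Mrpl40 and below them for Eif5a2, while Rps3 reaches -4.18 on Thy-1+CD24medCD49fhigh replicate 1.

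In 21 members every luminal array stood above every basal array, where 16.5% of all rows did so. After centring there were 14, where 9.89% of rows did so. These 14 were Rpl22, Ndufa7, Ndufa12, Ndufaf1, Sdha, Sdhaf1, Timm17a, Tomm22, Mrpl9, Mrpl19, Mrpl40, Psmc4, Psmd10 and Eif2ak2. Eif5a2 was the only member with every luminal array below every basal array, under both scalings.

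In the deposited values 13 of 28 proteasome members rose in luminal cells (46.4%, against 27.7% of all rows), and all 28 differences were above 0. With arrays centred 5 rose (17.9%, against 19.9% of all rows). Whether the proteasome differed from the other classes was not tested. Psmd10 (gankyrin), a chaperone in the assembly of the 19S regulator, led with 1.57; its luminal arrays lay between 0.67 and 1.37 and its basal arrays between -1.60 and 0.34. The ubiquitin receptor Psmd4 rose by 1.11 (SE 0.33) and the regulator ATPase Psmc5 by 0.98 (SE 0.31). In the 20S core 5 of 10 rose, from Psmb5 (0.90, SE 0.32) to Psmb4 (1.20, SE 0.46), and Psma4 was lowest with 0.45 (SE 0.29). Of the activators, Psme1 (PA28alpha, inducible by interferon-gamma) rose by 0.91 (SE 0.30) and Psme4 (PA200) was 0.47 (SE 0.35). The 5 that passed with arrays centred were Psma1, Psmc4, Psmc5, Psmd4 and Psmd10.

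Genes around the proteasome stood outside the rule. Of 10 measured genes for its assembly, immunoproteasome and regulators, 6 rose in luminal cells and none fell. Over all rows 27.7% rose and 17.4% fell. With arrays centred 5 genes of the list rose and none fell, against 19.9% and 21.8% of rows. The immunoproteasome subunits Psmb8 and Psmb9 rose by 2.06 (SE 0.37) and 1.80 (SE 0.34), and Psmf1 and Psmg1, an inhibitor and an assembly chaperone, by 1.13 (SE 0.27) and 1.08 (SE 0.32). The list's median was 0.89 log2, or 0.62 with arrays centred.

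In the respiratory chain 15 of 45 members rose, 33.3% against 27.7% of all rows. With arrays centred 6 did (Ndufa7, Ndufaf1, Sdha, Sdhaf1, Cox15 and Atp5b), 13.3% against 19.9% of rows. Complex II, which joins the tricarboxylic acid cycle to the chain, had the highest class median of the 5 complexes, 0.92, with 3 of 6 members called: Sdhd (1.21, SE 0.41), a membrane anchor, Sdhaf1 (1.04, SE 0.30), an assembly factor, and Sdha (0.81, SE 0.28), the flavoprotein. Complex III had the lowest median, 0.46, and 1 call, its core protein Uqcrc2 (0.88, SE 0.35, limma adjusted p = 0.0482), which did not pass with arrays centred. Cox4i1 rose as deposited, but its basal values ran from -2.71 to 0.63, and its limma adjusted p went from 0.0312 to 0.0854 with centring. The copper chaperone Cox11 was -0.03 (SE 0.33). Atp5b, the catalytic beta subunit of ATP synthase, rose by 1.24 (SE 0.39), and Atp5e, the epsilon subunit, was 0.27 (SE 0.32). Ndufa4l2, a hypoxia-inducible relative of Ndufa4, went the other way with -0.47 (SE 0.33), without passing the threshold.

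Of the mitochondrial ribosome 9 of 29 members rose, 31.0% against 27.7% of all rows, and all 29 differences were above 0. With arrays centred 5 rose, 17.2% against 19.9% of rows, and 26 differences were above 0. Mrpl40 was 1.18, 0.87 and 1.36 in CD24highCD49fmed cells, 0.48 and 0.67 in CD24medCD49f-/low cells, and -1.60 to 0.07 in basal cells. Its limma adjusted p was 0.00108. Mrpl3 was lowest in the class at 0.14 (SE 0.31), and it was at 1.59 on Thy-1+ replicate 1, against -0.47 to 0.23 on the other 13 arrays. In the import machinery 3 of 16 rose, 18.8% against 27.7% of all rows. They were Timm17a (1.05, SE 0.34) of the inner membrane translocase, Timm13 (1.04, SE 0.37), a small chaperone between the membranes, and the outer membrane receptor Tomm22 (1.00, SE 0.27). Timm8a2 was lowest with -0.53 (SE 0.39).

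In the cytosolic ribosome only Rpl22 and Rps20 (0.87, SE 0.31) of 19 members rose, and Rpl22 alone with arrays centred. The class median was 0.60 as deposited and 0.33 with arrays centred. Of 17 initiation factors none rose, and Eif5a2 fell, where 27.7% of all rows rose and 17.4% fell. The highest was Eif4e2, a cap-binding relative of eIF4E, at 0.83 (SE 0.34, limma adjusted p = 0.054). The X-linked Eif2s3x and Eif1ax were 0.57 (SE 0.33) and 0.02 (SE 0.42). Eif1ax, a factor of start codon scanning, was at -2.79 on Thy-1+ replicate 3 and -1.39 on replicate 1, and between -0.38 and 1.14 on the other 12 arrays. Without these Thy-1+ arrays it fell in luminal cells, by 0.63 log2 (SE 0.23, limma adjusted p = 0.0342).

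Leaving out arrays changed how many members passed. Without 1 array the rises numbered from 13 (without CD24medCD49f-/low replicate 2) to 86 (without Thy-1+CD24medCD49fhigh replicate 2), where 16.4% and 39.2% of all rows rose. Without both Thy-1+ arrays of lowest median, 34 rose and 4 fell, against 27.2% and 22.5% of all rows. Without the Thy-1- array of lowest median too, 45 rose and 5 fell, against 29.8% and 24.8%. With arrays centred, 28 rose and 6 fell in the first of these settings (24.5% and 25.7% of all rows) and 36 rose and 10 fell in the second (26.9% and 27.7%). In the last of these settings the 10 that fell were Eif5a2, Eif1ax, Eif1ad, Rps25, Rps3, Rps6kc1, Cox11, Mrpl48, Timm21 and Timm8a1. There, 3 of 10 members of the proteasome core, 6 of 16 of its regulator, 10 of 29 of the mitochondrial ribosome and 2 of 19 of the cytosolic ribosome rose, and none of 17 initiation factors did.

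Other genes that serve these machines gave these counts in the deposited values, where 27.7% of all rows rose and 17.4% fell. Of 22 measured ribosome biogenesis genes 3 rose, among them Nhp2 (1.26, SE 0.41) and Fbl (1.13, SE 0.39), both of small nucleolar particles that modify ribosomal RNA, and Myc, a driver of ribosome production, fell (-1.40, SE 0.28). Of 9 regulators around mTORC1 and stress control 3 rose: Larp1 (1.47, SE 0.29), which binds TOP mRNAs, Deptor (1.24, SE 0.26), an mTOR inhibitor, and Rptor (0.94, SE 0.34), the defining subunit of mTORC1. Of 11 genes of the tricarboxylic acid cycle and pyruvate dehydrogenase 4 rose, among them Pdk1 (1.24, SE 0.37) and Dld (1.18, SE 0.36). Pdk4 fell (-1.87, SE 0.39). Of 9 other genes of oxidative phosphorylation 4 rose, led by the outer membrane channel Vdac1 (1.86, SE 0.47), and the ADP/ATP carrier Slc25a4 fell (-0.92, SE 0.31). Of 7 mitochondrial chaperones and proteases 3 rose, led by Grpel2 (1.50, SE 0.29). Among 3 measured regulators of mitochondrial biogenesis, Gabpb1, a subunit of GABP, rose by 0.77 (SE 0.30), and of 5 elongation and termination genes Eef1e1 rose (0.82, SE 0.31). With arrays centred Fbl, Rptor, Gabpb1 and Eef1e1 no longer passed, and 19.9% of all rows rose and 21.8% fell. The ribosome biogenesis list then had 1 rise and 2 falls, the tricarboxylic acid cycle list 2 and 2, the mTORC1 list 2 rises, the chaperones and proteases 2 rises, and the other genes of oxidative phosphorylation 3 rises and 1 fall.

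Letters known from such genes were looked for at the starts of the members, and most windows held none of a given kind. Promoter windows of RefSeq (GRCm38.p6), from 250 bases before to 50 after an annotated start, were matched by symbol for 138 of 160 members (154 windows) and searched on both strands. The ETS core CCGGAAG stood in 35.1% of member windows, against 8.86% of all 32851 windows and 14.3% of windows of the other named genes in the table. The YY1 core AAGATGGC, which can overlap the ETS core by its first letters, stood in 8.44% against 2.75% and 3.52%. The palindromic NRF1 core, spelled by the capitals of the Cox6a1 sequence, stood in 3.9% against 0.971% and 1.58%. A TOP start was taken as a C at the annotated start followed by 4 pyrimidines. Tracts that begin at another base were not counted. Such starts stood in 6.49% of member windows, in 26.3% (5 of 19) of those of the cytosolic ribosome and in 2.51% of all. By class, the ETS core stood in 60% of windows of the 19S regulator (9 of 15) and in none of 8 of the 20S core, which had no NRF1 core or TOP start either. In complex V it stood in 11.1%, under the share of the other named genes. These are matches of letters, not sites shown to be bound.

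To show such starts next to the values above, 15 bases before and after the annotated start are given for Rpl14 (chr9:120571502-120571531, + strand), Rps10 (chr17:27635230-27635259, - strand) and Rplp2 (chr7:141447636-141447665, + strand), which have a TOP start, and for Rps25 (chr9:44407699-44407728, + strand), which has none. Capitals mark the first 5 bases from the annotated start, and all run 5′ to 3′. Rps10 was at -2.48 and Rps25 at 1.36 on Thy-1- replicate 2, and Rpl14, with a TOP start, was at 0.70 there. Whether a TOP start bears on these values was not tested.
Rpl14: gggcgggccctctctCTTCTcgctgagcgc
Rps10: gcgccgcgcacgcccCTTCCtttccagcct
Rplp2: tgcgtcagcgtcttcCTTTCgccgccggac
Rps25: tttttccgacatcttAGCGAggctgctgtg

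The ETS core is shown for members called in the luminal against basal comparison. In capitals, on either strand, it lay upstream of Eif5a2 (chr3:28781102-28781131, + strand), which fell in luminal cells, and of Eif4ebp2 (chr10:61452775-61452804, - strand) and Psmd4 (chr3:95042721-95042750, - strand), which rose. The YY1 core, in capitals on either strand, lay upstream of Rpl22 (chr4:152324271-152324300, + strand) and just after the start of Rpl13a (chr7:45128699-45128728, - strand). The NRF1 core lay upstream of Cox6a1 (chr5:115349101-115349130, - strand), a subunit of cytochrome c oxidase. Among these examples, the ETS core thus stood upstream of members that moved in opposite directions. Whether a core bears on a member's direction was not tested.
Eif5a2: agctctgcacgCCGGAAGtgcactaatccg
Eif4ebp2: gccttcgaccgCTTCCGGtagtcatcgttg
Psmd4: ttacagctgttCCGGAAGctgctgcgaagg
Rpl22: ctggaatatctGCCATCTTccagccacggg
Rpl13a: ggcggctgccgAAGATGGCggaggggcagg
Cox6a1: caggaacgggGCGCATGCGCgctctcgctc

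Between the luminal populations no member passed the threshold, over 5 arrays, where 3.02% of all rows were called higher and 2.57% lower in CD24highCD49fmed cells (limma). At an unadjusted p under 0.05, 22 members were higher and 0 lower, against 18.3% and 8.68% of rows. The members' median was 0.26, that of all rows 0.14, and 140 members were above 0. With arrays centred, 4 were higher and 2 lower at that p, against 10.3% and 14.7% of rows, and the medians were 0.09 and -0.02. The smallest p went to Ndufab1, the mitochondrial acyl carrier protein (0.70, SE 0.19, limma adjusted p = 0.0658), Mrpl34 (0.78, SE 0.22, limma adjusted p = 0.0742) and Cox5a (0.61, SE 0.19, limma adjusted p = 0.0918). Ndufab1 was 0.66, 0.82 and 0.99 against 0.04 and 0.21, without overlap. In the other direction Ndufa4l2 was -0.42 (SE 0.19), the small-subunit protein Rps14 -0.42 (SE 0.25) and Eif4e2 -0.28 (SE 0.21).

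By class, medians of complexes I to V lay between 0.23 and 0.34, of mitochondrial import at 0.31, of the mitochondrial ribosome at 0.32 and of the 20S core at 0.34. The cytosolic ribosome was at 0.02 and the initiation factors at 0.13. The cell cycle list, by comparison, had 8 of 10 measured genes called higher in CD24highCD49fmed cells and none lower, with a median of 1.58. Over all rows 3.02% were called higher and 2.57% lower. Whether dividing cells bear on the members' differences was not tested.

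Within the basal layer, Thy-1+CD24medCD49fhigh cells were compared with both other populations over 9 arrays. No member and no other row of the table passed the threshold by limma. At an unadjusted p under 0.05, 25 members were lower and 0 higher, against 12.8% and 2.6% of rows. The members' median was -0.68, that of all rows -0.46, and 9 members were above 0. Single arrays moved these values. Without Thy-1+ replicate 1 the members' median was -0.27 (all rows -0.26) and 3 members were lower at that p (2.6% of rows). Without Thy-1+ replicate 2 the median was -1.07 (all rows -0.71) and 76 were lower (37% of rows), and without any other 1 array 12 to 38 were. With arrays centred and all 9 in, 6 were lower and 3 higher, against 3.16% and 8.19% of rows, and the medians were -0.24 and -0.02. Without both Thy-1+ arrays of lowest median, which leaves 1 array of that population, the members' median was 0.06.

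The smallest p went to Rps3 (-2.49, SE 0.69), Rpl14 (-1.75, SE 0.54) and Mrpl13 (-1.79, SE 0.58), each with a limma adjusted p of 0.317. Rps3, a small-subunit protein that also acts in DNA repair, was -4.18, 0.55 and -1.96 in the Thy-1+ arrays and between 0.30 and 0.88 in the other 6. Rpl14 was -2.49, 0.24 and -2.07 in the Thy-1+ arrays, and Mrpl13 was -2.97, 0.44 and -1.42. In each of the 3 genes replicates 1 and 3 were low, and replicate 2 fell among the other basal arrays. In the other direction Timm8a2 was 1.15 (SE 0.56), with 2.56 on replicate 3, Ndufa4l2 was 0.97 (SE 0.49), with 2.11 on replicate 1, and Eif5a2 was 0.64 (SE 0.45). Without Thy-1+ replicate 2, 50 members were called lower and 2 higher, where 24.7% and 4.58% of all rows were. This set rests on the arrays of lowest median alone.

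Between Thy-1-CD24medCD49fhigh and CD24medCD49fmed cells, over 6 arrays, no member passed the threshold, and none had an unadjusted p under 0.05, by limma. Over all rows 1.17% had such a p as deposited and 1.28% with arrays centred. The members' median and that of all rows were both -0.07, and 67 members were above 0. Members with the smallest p were Eif2a (0.78, SE 0.38), Timm17b (0.63, SE 0.40) and Rpl14 (0.50, SE 0.32) on one side and Atp5b (-1.19, SE 0.59), Ndufa10 (-0.80, SE 0.44) and Rps6kc1 (-0.59, SE 0.39) on the other, each with a limma adjusted p of 0.999. Atp5b was 0.32, -2.37 and -0.45 in Thy-1- and 0.41, 0.05 and 0.60 in CD24medCD49fmed cells. Without Thy-1- replicate 2 the members' median was 0.17.

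**Figure D5:**
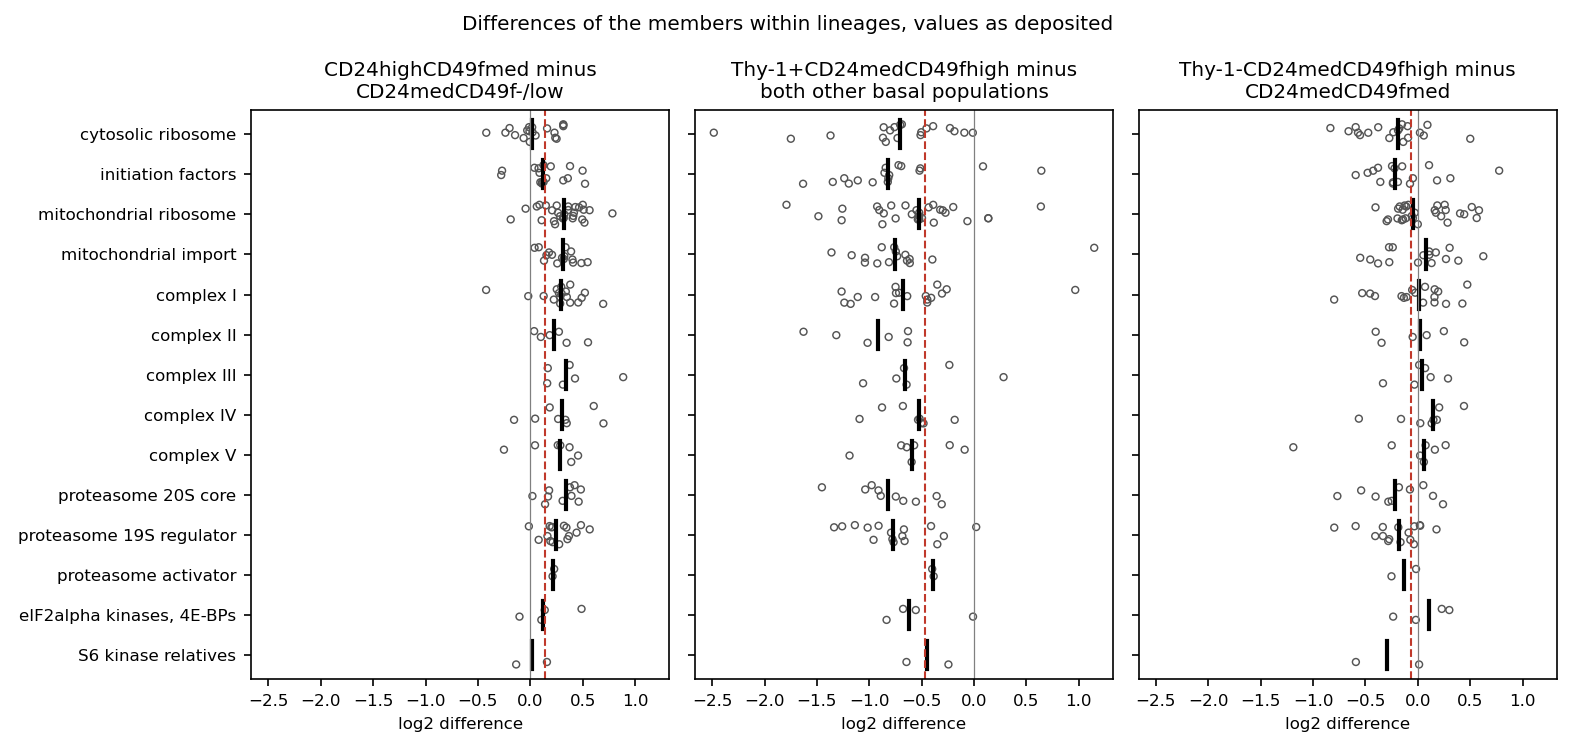
Log2 differences of the members by class within the luminal lineage (left) and between basal populations (middle and right), from deposited values; circles are genes, black lines class medians and the red dashed line the median of all rows. No member passed limma's threshold in the 3 comparisons, and in the middle panel most members lie below the median of all rows (-0.46).

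Uqcr10, a small subunit of complex III, did not follow the populations. It was -1.26 in Thy-1-CD24medCD49fhigh, -1.31 in CD24medCD49fmed, -0.91 in CD24highCD49fmed and -1.03 in CD24medCD49f-/low cells, each time in replicate 1. In Thy-1+CD24medCD49fhigh replicate 1 it was 0.19, and the other 9 arrays lay between -0.08 and 1.45. It was picked out after its values were seen, and what replicate numbers stand for is not given by the labels.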

How the data were processed

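Per the study's methods, the authors ran RMA (robust multichip average) in MIDAS over all samples of the study, which also arrayed FVB mice (whether together is not given in the sources used here), kept probe sets by signal and a 4-fold difference between arrays in Cluster 3.0, subtracted each probe set's mean and deposited the log2 values. The submitters' notes also name GCRMA; the sources used here give no versions. The deposited table held 9645 probe sets. The 8499 annotated to a single gene were reduced to 1 mean per gene; 199 with several symbols (27 of them with a symbol that meets the rule, left out of the members) and 947 with none stayed single, giving 7190 rows. Linear models (limma 3.58.1, R 4.3.3, moderated by eBayes) were fitted to the arrays of each comparison; tests were two-sided, with Benjamini-Hochberg adjusted p under 0.05 over all rows. Rank products, the study's test, were not run, since their null exchanges genes within arrays. The fits were tested on simulated data with independent noise of the same SD in every population. Drops shared by whole arrays were not simulated. Figures were drawn with Python 3.11.15 and matplotlib 3.10.9. Alternatives were array centring, quantile normalization, array weights, a replicate block, 1 fit of 14 arrays, single probe sets, a log2 difference of 1 or more, and leaving out arrays.

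The members and lists were chosen with earlier results of these data known. Named members are, by rule, those called with the largest differences (up to 6 each way per comparison), otherwise the 3 with the smallest p each way, the extremes of each class, members caught by letters alone, and X-linked copies; further genes are named to complete small counts. Companion lists give up to 4 called genes.

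Whether replicate numbers pair arrays was checked by correlating deviations from population means. Numbers paired CD24medCD49fmed with Thy-1+CD24medCD49fhigh (r = 0.388, 0.391 and 0.386) and Thy-1-CD24medCD49fhigh arrays (0.374, 0.328 and 0.558), but not the latter populations with each other (-0.002, -0.16 and 0.245). Between the luminal populations r was 0.296 and 0.151. Between luminal and basal arrays of the same number it ran from -0.029 to 0.225.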

Additional observations from a re-analysis of the deposited data

How the results depend on the processing

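Luminal against basal: 44 members rose and 1 fell. Array centring gave 21 and 2, and array weights 76 and 2. A log2 difference of 1 or more gave 21 rises, and its count over all rows was not taken. Quantile normalization and the replicate block gave 2 falls each. The block gave 61 rises and changed no member's call in the other comparisons. Calls over all 7190 rows moved too. In the main fit 1989 rows rose and 1253 fell, with centring 1430 and 1569, and with array weights 2773 and 1554. Quantile normalization gave 1732 and 1511, and the block 2083 and 1346. Without both Thy-1+ arrays of lowest median 4 fell; with centring as well, 28 rose and 6 fell. Without the low Thy-1- array too, 5 fell, or 10 with centring. The last 3 settings were chosen after seeing the data. Leaving out 1 array gave 13 to 86 rises (lowest without CD24medCD49f-/low replicate 2, highest without Thy-1+CD24medCD49fhigh replicate 2) and 1 to 2 falls; other counts more than 1.5 times lower were 16 without CD24medCD49f-/low replicate 1, 21 and 23 without CD24highCD49fmed replicates 1 and 3, and 28 without CD24medCD49fmed replicate 1. Over all 7190 rows, 1556 and 1631 rose without CD24highCD49fmed replicates 1 and 3, and 1707 without CD24medCD49fmed replicate 1. A lone remaining array was assumed to vary like the others. The named calls Rpl22, Ndufa7, Psmd10, Eif4ebp2, Mrpl40, Eif2ak2 and Eif5a2 passed in every setting that keeps 1 row per gene. Cox4i1, Psmb4, Psme1, Sdhd and Uqcrc2 no longer passed with centring, and Atp5b and Timm17a were lost in other settings.

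CD24highCD49fmed against CD24medCD49f-/low: array weights called 1 member higher and single probe sets 1 lower, and leaving out 1 array 0 to 2 higher and 0 lower. Of all 7190 rows, array weights called 447 higher and 280 lower, and the main fit 217 and 185. Without CD24highCD49fmed replicate 1, where 2 members were higher, 395 rows were higher and 267 lower. The replicate block called no member but 507 rows higher and 322 lower. Thy-1+ against both others: leaving out 1 array gave 0 to 2 higher and 0 to 50 lower, both extremes without Thy-1+ replicate 2. Thy-1- against CD24medCD49fmed: 0 to 0 each way.

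Members near 0 changed sign. Array centring turned Uqcrq to -0.10, Atp5e to -0.0014, Mrpl3 to -0.13, Eif4ebp1 to -0.22 and Eif1ax to -0.25; quantile normalization turned Uqcrq to -0.13, Atp5e to -0.0699, Eif4ebp1 to -0.27 and Eif1ax to -0.31; array weights turned Uqcrq to -0.0398 and Eif4ebp1 to -0.0628, and the replicate block Eif1ax to -0.11. Without both Thy-1+ arrays of lowest median Eif4ebp1 was -0.12, Psmd6 -0.0062 and Eif1ax -0.63, and with centring Sdhaf4 was -0.0286, Uqcrq -0.0847, Atp5e -0.11, Eif4ebp1 -0.23, Psmd6 -0.12 and Eif1ax -0.75. Without the low Thy-1- array too Uqcrq was -0.0763, Atp5e -0.0903, Eif4ebp1 -0.23 and Eif1ax -0.57, and with centring Uqcrq was -0.16, Atp5e -0.18, Eif4ebp1 -0.32, Psmd6 -0.0497 and Eif1ax -0.66. In Thy-1+ against both other basal populations the same 4 settings, in that order, gave -0.13, -0.16, -0.095 and -0.0806 for Ndufa4l2, and the last 2 gave 0.0439 and 0.0582 for Mrpl13. Leaving out 1 array moved Rps6kc1 from -0.16 to 0.15, Cox11 from -0.23 to 0.15, Eif4ebp1 from -0.0713 to 0.13 and Eif1ax from -0.26 to 0.34.

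The cause of these changes was not tested. Precision is limited by 2 or 3 arrays per population, and signal over background was not used here. The replicate numbers of luminal arrays were taken as names only, except in the replicate block and the check of pairing. Of 36 members with several probe sets, Rps9 and Uqcrq had probe sets of opposite sign between luminal and basal cells.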
